A study of Drosophila melanogaster with 6 samples.

Results

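The Jonah proteases and the gut trypsins are serine proteases that the fly midgut secretes to digest food protein. The genes were taken from the deposited count table by symbol: every symbol that begins with Jon and a digit, the trypsins named with a Greek letter (alphaTry to lambdaTry), and Ser6, Ser7, Ser8 and Ser12. The rule found 31 genes of the 17558 identifiers in the table, namely 16 Jonah genes, 11 trypsin genes and 4 Ser genes. The rule uses no measured value, but the genes were chosen with earlier results of these data known.

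Enterocytes, the absorptive cells of the midgut, make most digestive enzymes and release them into the gut lumen, where serine proteases cut dietary proteins inside the chain. Trypsins are made as inactive precursors and cut after the basic residues lysine and arginine. Jonah genes encode small proteases of the same fold that are expressed in the larval and adult midgut, and the first part of each name is the cytological band where the gene lies. Most of these genes stand in tandem or paired copies, and digestive enzyme genes of the fly are known to respond to diet, to infection and to activin, insulin and sugar signals.

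The study sequenced 3 libraries of adult males that overexpressed lncRNA-CR11538, with the genotype Gal80ts; Tub> CR11538, and 3 libraries of controls, with the genotype Gal80ts; Tub-Gal4/P{CaryP}attP40. Each was taken 12 h after M. luteus, a Gram-positive bacterium, was injected into the thorax. The tubulin promoter drives Gal4 in nearly all tissues, and Gal80ts holds Gal4 silent until flies reared in the cool are warmed, here for 24 h. The methods name the injected line by P{CaryP}attP40, which the control genotype also carries, together with another site name and band 25C, next to the band of the Jon25B genes. That the transgene lies at that band was inferred from this entry and was not tested here. The males had been collected over 3 to 4 days, and a closer age is not stated. Every library came from infected, warmed flies and no gut dissection is described, so each difference below is between genotypes of infected adult flies. In either direction, a change in the number of midgut cells and a change in RNA per cell cannot be told apart. Nothing states whether the libraries of a genotype came from separate batches of flies, so the p-values measure the spread between these libraries, which may be technical.

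The CR11538-overexpressing libraries held 18688260 to 19652500 counts each and the control libraries 17040432 to 19237306. The overexpressed gene itself had 2291, 3358 and 3312 raw counts in CR11538-overexpressing libraries, against 5, 2 and 5 in control libraries, so the labels match the targeted RNA. Of 13159 genes tested with edgeR's quasi-likelihood test, 15.0% were higher and 14.2% were lower in CR11538-overexpressing flies with an adjusted p (Benjamini-Hochberg) below 0.05. Without overlap between the libraries of the genotypes were 45.2% of the genes, 21.8% higher and 23.3% lower. All values below are TMM-normalized counts per library unless another scale is named, the log2 fold changes are of CR11538-overexpressing over control flies with their standard error (SE), and each group has n = 3. "Rose" and "fell" are used of genes past that threshold, whatever the size of the change.

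Most Jonah genes rose and most trypsin genes did not pass the test. Of the 16 Jonah genes, 12 rose, 1 fell and 3 did not pass, and all 12 that rose were higher by more than 2-fold, a size reached by 3.43% of all genes tested (4.66% in either direction). Of the 11 trypsin genes, 2 rose, none fell and 9 did not pass, and none was past 2-fold in either direction, nor was any Jonah gene lower by that much, as 1.23% of all genes were. The share that rose was 75% of the Jonah genes and 18.2% of the trypsin genes, beside 15.0% of all genes tested, so the trypsins stood near the background. The genotypes did not overlap for 13 of the 16 Jonah genes and for 2 of the 11 trypsin genes, beside 45.2% of all genes tested. The difference between the classes was described by these counts and was not itself tested. The median log2 fold change was 1.50 over the Jonah genes and -0.02 over the trypsin genes, against -0.01 over all genes. Every trypsin gene lay between -0.28 and 0.60, while the Jonah genes ran between -0.43 and 4.51.

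**Figure D1:**
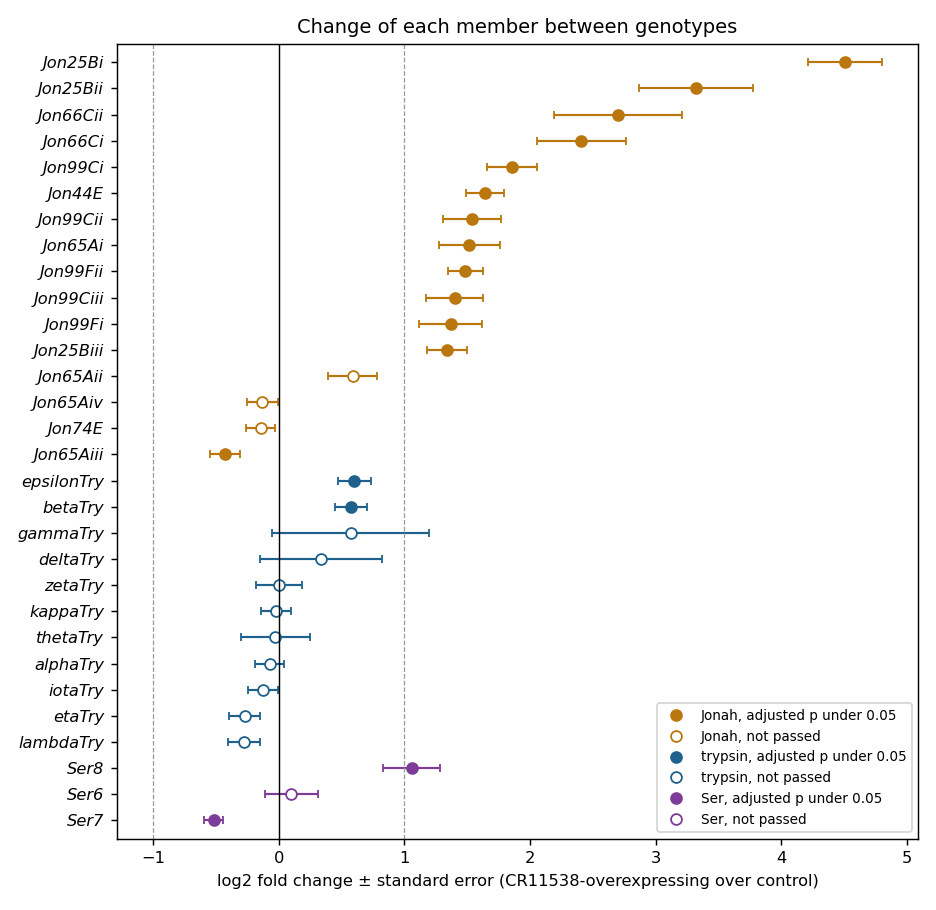
Log2 fold change of CR11538-overexpressing over control flies (horizontal axis) for each of the 30 Jonah, trypsin and Ser genes tested, with bars of 1 SE from edgeR, filled points for genes past an adjusted p of 0.05, and dashed lines at a 2-fold change. The 12 Jonah genes that rose lie between 1.34 and 4.51, and every trypsin gene lies between -0.28 and 0.60.

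The Jon25B locus, 3 genes within 5204 bp of chromosome 2L (dm6, 4949941 to 4955144), held the largest changes. Jon25Bi had 3833, 3253 and 2751 normalized counts in CR11538-overexpressing libraries, against 235, 87.4 and 107 in control libraries. Its log2 fold change was 4.51 ± 0.29 (SE, adjusted p = 2.65e-05, edgeR), a ratio of 22.8, and it was the largest of the 30 genes tested. Jon25Bii had 1631, 1204 and 899.6 normalized counts in CR11538-overexpressing libraries, against 247, 46.2 and 78.4 in control libraries. Control replicate 1 was the highest control for both genes and still lay below every CR11538-overexpressing library. The log2 fold change of Jon25Bii was 3.32 ± 0.45 (SE, adjusted p = 0.000865, edgeR), and it was 4.33 without that control library. Jon25Biii, the most abundant of the 3, had 8251, 6231 and 5432 in CR11538-overexpressing libraries, against 3102, 2402 and 2355 in control libraries, a log2 fold change of 1.34 ± 0.16 (SE, adjusted p = 0.000401, edgeR). Per length, the level in control flies was 169 for Jon25Biii, 8.82 for Jon25Bi and 7.38 for Jon25Bii (CPM per kilobase of exon). The pair with the lower control levels showed the larger fold changes, of which the control level is the denominator. In the 100 kb on either side of this locus, 38 other genes were tested, of which 5 rose and 7 fell. That is 31.6% called, near the 29.2% of all genes. None was past 2-fold, a size reached in either direction by 4.66% of all genes tested. Whether the transgene lies within this window was not tested.

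The 99C and 99F loci on chromosome 3R together hold 5 Jonah genes, and all 5 rose, with log2 fold changes between 1.37 and 1.86. At 99C, Jon99Ci had 4495, 2973 and 2533 normalized counts in CR11538-overexpressing libraries, against 1073, 777 and 907 in control libraries (log2 fold change 1.86 ± 0.20, SE, adjusted p = 0.000235, edgeR). Jon99Cii, the most abundant Jonah gene that rose, had 15958, 11245 and 8622 in CR11538-overexpressing libraries, against 5354, 3268 and 3698 in control libraries (1.54 ± 0.23, SE, adjusted p = 0.00147, edgeR). Jon99Ciii had 10498, 7331 and 6270.0 in CR11538-overexpressing libraries, against 4075, 2389 and 2673 in control libraries (1.40 ± 0.22, SE, adjusted p = 0.00196, edgeR). Replicate 1 was the highest library of its genotype for each of these 3 genes, and the genotypes did not overlap. Jon99Cii and Jon99Ciii are known as near-identical copies, so reads may be shared between them and their separate values are uncertain. The sum over the locus does not depend on how shared reads were split between them. If the counting dropped such reads, that sum would lack them as well. That sum was 30951, 21549 and 17425 in CR11538-overexpressing libraries, against 10502, 6434 and 7278 in control libraries, a ratio of group means of 2.89.

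At 99F, Jon99Fii had 3606, 2911 and 2487 normalized counts in CR11538-overexpressing libraries, against 1246, 1009.5 and 958 in control libraries (log2 fold change 1.49 ± 0.14, SE, adjusted p = 0.00013, edgeR). Its partner Jon99Fi had 683, 451 and 348 in CR11538-overexpressing libraries, against 196, 236 and 139.6 in control libraries (1.37 ± 0.25, SE, adjusted p = 0.00384, edgeR). The lowest CR11538-overexpressing library lay above the highest control library for both. Jon44E, a single gene on 2R, had 933, 782 and 676 in CR11538-overexpressing libraries, against 312, 233 and 221 in control libraries (1.64 ± 0.15, SE, adjusted p = 0.000121, edgeR). Its last 49 bp overlap CG8586 on the opposite strand, which fell by 0.44 on the log2 scale, and it is not known here whether the counting used strand.

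The pair at 66C on chromosome 3L rose in both members, with 1 control library apart from the others. Jon66Ci had 886, 1263 and 818 normalized counts in CR11538-overexpressing libraries, against 109, 329 and 118 in control libraries. Jon66Cii had 64.1, 72.3 and 67.8 in CR11538-overexpressing libraries, against 3.90, 23.6 and 3.22 in control libraries. Control replicate 2 was the high control in both cases. The log2 fold change was 2.41 ± 0.36 (SE, adjusted p = 0.00131, edgeR) for Jon66Ci, and 3.12 without that library. It was 2.70 ± 0.51 (SE, adjusted p = 0.0044, edgeR) for Jon66Cii, and 4.20 without that library. The raw counts of Jon66Cii in the control libraries were 4, 24 and 3, so its control level rests on few reads.

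**Figure D2:**
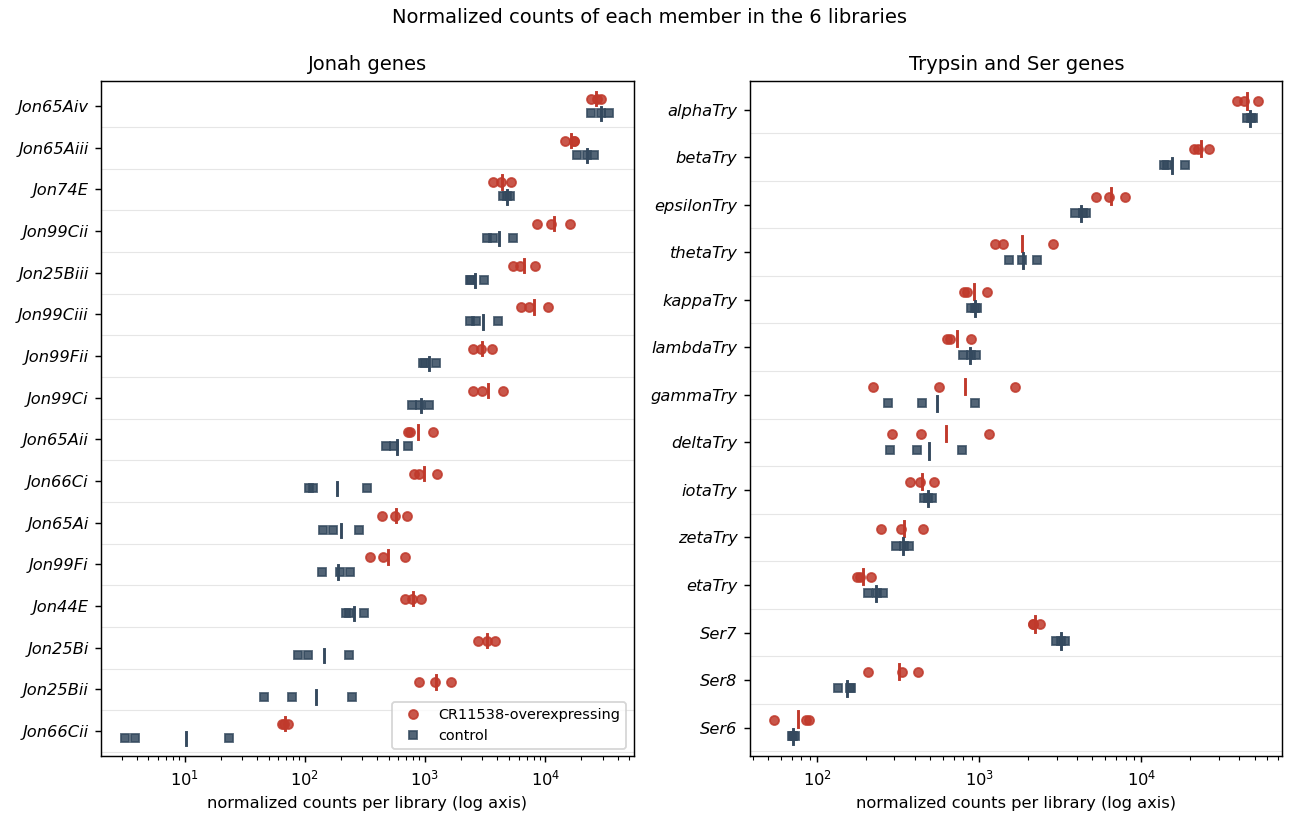
TMM-normalized counts (horizontal log axis) of the 30 Jonah, trypsin and Ser genes tested, with 1 point per library and a tick at the mean, CR11538-overexpressing libraries above control libraries for each gene. For the 12 Jonah genes that rose, every CR11538-overexpressing point lies above every control point, while the points of 9 trypsin genes overlap.

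The exceptions among the Jonah genes were at 65A and 74E, both on chromosome 3L, and they included the genes with the highest control levels. Jon65Aiv had 28852, 27232 and 24034 normalized counts in CR11538-overexpressing libraries, against 34154, 29372 and 24101 in control libraries. Its libraries overlapped between genotypes, and the log2 fold change of -0.13 ± 0.13 (SE, adjusted p = 0.483, edgeR) did not pass. Jon65Aiii had 17436, 17359 and 14753 in CR11538-overexpressing libraries, against 25576, 22420.1 and 18536 in control libraries, and it fell by 0.43 on the log2 scale (SE 0.12, adjusted p = 0.0259, edgeR). It was the only Jonah gene that fell, and the call was lost when any of 3 single libraries was left out (adjusted p = 0.054 without CR11538-overexpressing replicate 2, 0.101 without control replicate 1 and 0.0881 without control replicate 2, edgeR). Jon74E had 5164, 4253 and 3666 in CR11538-overexpressing libraries, against 4858, 5115 and 4475 in control libraries, a log2 fold change of -0.14 ± 0.12 (SE, adjusted p = 0.386, edgeR). Its CR11538-overexpressing replicate 1 was the highest of all 6 libraries, and without it Jon74E passed as lower (-0.28, adjusted p = 0.0277, edgeR).

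The rarer genes of the 65A locus did not follow their abundant neighbours. Jon65Ai had 704, 439 and 567 normalized counts in CR11538-overexpressing libraries, against 283, 172 and 141 in control libraries, and it rose (log2 fold change 1.52 ± 0.24, SE, adjusted p = 0.002, edgeR). Jon65Aii, the gene beside it, had 1167, 754 and 717 in CR11538-overexpressing libraries, against 722, 477 and 554 in control libraries. Only the lowest CR11538-overexpressing library, 717, fell below the highest control library, 722, and the log2 fold change of 0.59 ± 0.20 (SE, adjusted p = 0.0504, edgeR) narrowly missed the threshold. Jon65Aii passed as higher under 8 of the 12 alternatives tried. Within 15289 bp, the 4 genes of this locus thus included 1 that rose, 1 that fell and 2 that did not pass.

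Jonah genes can be compared with each other only per length, as TMM-scaled CPM per kilobase of exon. On that scale Jon65Aiv stood at 1575 ± 145 in CR11538-overexpressing flies and 1723 ± 297 in control flies (SD), and Jon65Aiii at 1007 ± 93.1 in CR11538-overexpressing flies and 1352 ± 215 in control flies. Both ranked highest of the 16 Jonah genes in each genotype. Jon25Bi stood at 202 ± 33.4 in CR11538-overexpressing flies and 8.82 ± 4.93 in control flies (SD), which placed it 7 of 16 in CR11538-overexpressing flies and 14 of 16 in controls. Jon25Bii was placed 10 of 16 in CR11538-overexpressing flies and 15 of 16 in controls. Jon99Cii, at 739 ± 229.9 in CR11538-overexpressing flies and 254 ± 68.1 in controls (SD), had a higher mean than Jon74E in CR11538-overexpressing flies and a lower one in controls, Jon74E standing at 258 ± 44.6 in CR11538-overexpressing flies and 284 ± 19.0 in controls. The control libraries disagreed on that order, since Jon99Cii was the higher of the pair in control replicate 1. Reads that may be shared with Jon99Ciii also leave the level of Jon99Cii uncertain. Jon66Cii was lowest in both genotypes, at 4.37 ± 0.262 in CR11538-overexpressing flies and 0.657 ± 0.742 in controls (SD).

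The 11 trypsin genes lie within 20698 bp of chromosome 2R (dm6, 11336840 to 11357537), and only betaTry and epsilonTry rose. betaTry had 26031, 22416 and 21212 normalized counts in CR11538-overexpressing libraries, against 18589.6, 13755 and 14396 in control libraries (log2 fold change 0.58 ± 0.13, SE, adjusted p = 0.00843, edgeR). epsilonTry had 7927, 6307 and 5253 in CR11538-overexpressing libraries, against 4553, 4399 and 3882 in control libraries (0.60 ± 0.13, SE, adjusted p = 0.00937, edgeR). The genotypes did not overlap for either gene, and both passed under all 12 alternatives. alphaTry, the most abundant of the 31 genes, had 52726, 42894 and 38873 in CR11538-overexpressing libraries, against 48913, 44944 and 47569.7 in control libraries. Its highest and its lowest library were both of CR11538-overexpressing flies, and the log2 fold change of -0.07 ± 0.11 (SE, adjusted p = 0.675, edgeR) did not pass. Per kilobase it stood at 2779.8 ± 442 in CR11538-overexpressing flies and 2923 ± 125 in control flies (SD, CPM per kilobase).

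The other trypsins did not pass. thetaTry had 2860.0, 1405 and 1254 normalized counts in CR11538-overexpressing libraries, against 2262, 1536 and 1826 in control libraries, and the log2 fold change of -0.03 ± 0.28 (SE, adjusted p = 0.95, edgeR) became -0.49 (adjusted p = 0.0189) without CR11538-overexpressing replicate 1. That library was the highest of its genotype for 11 of 11 trypsin genes and for 14 of 16 Jonah genes, and control replicate 1 was the highest control for 6 of 11 trypsin and 12 of 16 Jonah genes. lambdaTry gave -0.28 ± 0.13 (SE, adjusted p = 0.139, edgeR), and it passed as lower without the same library (-0.44, adjusted p = 0.00512). etaTry, iotaTry, kappaTry and zetaTry had log2 fold changes of -0.27, -0.13, -0.02 and 0.00 and did not pass under any of the 12 alternatives. With that library left out, 12 Jonah genes still rose and 2 fell, while 2 trypsin genes rose and 2 fell.

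gammaTry and deltaTry varied more between libraries of 1 genotype than between genotypes. gammaTry had 1668, 564 and 219.8 normalized counts in CR11538-overexpressing libraries, against 442, 275 and 936 in control libraries, so its highest library exceeded its lowest 7.59-fold in CR11538-overexpressing flies and 3.41-fold in controls. deltaTry had 1142, 435 and 291 in CR11538-overexpressing libraries, against 411, 279.9 and 788 in control libraries. The 2 unnamed trypsin-like genes that lie between them, CG30031 and CG30025, showed the same order of libraries within each genotype. CG30031 had 1345, 542 and 318 in CR11538-overexpressing libraries, against 363, 311 and 560.5 in control libraries, and CG30025 had 912, 396 and 171 in CR11538-overexpressing libraries, against 274, 216 and 466 in control libraries. All 4 were highest in CR11538-overexpressing replicate 1 and, among controls, in control replicate 3. These genes are near-identical tandem copies whose reads may be shared or dropped by the counting, and how multiply aligned reads were counted is not stated. deltaTry also shares 15 bp with CG13202 on the opposite strand. None of the 4 passed the test (adjusted p = 0.535 for gammaTry, 0.642 for deltaTry, 0.187 for CG30031 and 0.375 for CG30025, edgeR).

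**Figure D3:**
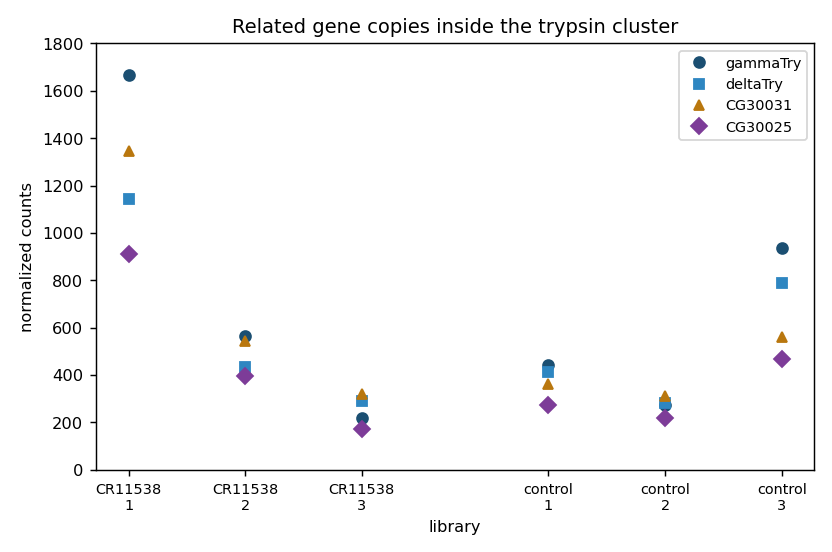
TMM-normalized counts (vertical axis, linear) of gammaTry, deltaTry, CG30031 and CG30025 in each of the 6 libraries, CR11538-overexpressing libraries to the left of control libraries, with 1 marker shape per gene. CR11538-overexpressing replicate 1 is the highest library for all 4 genes, and control replicate 3 is the highest control.

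The Ser genes went in different directions. Ser7, a protease known for its part in the melanization response, had 2141, 2384 and 2134 normalized counts in CR11538-overexpressing libraries, against 2960.3, 3216 and 3365 in control libraries, and it fell by 0.52 on the log2 scale (SE 0.07, adjusted p = 0.00107, edgeR). Ser8 had 416, 205 and 333 in CR11538-overexpressing libraries, against 163, 160.1 and 134 in control libraries, and it rose (log2 fold change 1.06 ± 0.23, SE, adjusted p = 0.00777, edgeR). The genotypes did not overlap for Ser7 or Ser8. Ser6 had 89.6, 54.5 and 85.2 in CR11538-overexpressing libraries, against 73.1, 70.7 and 69.8 in control libraries, a log2 fold change of 0.10 ± 0.21 (SE, adjusted p = 0.756, edgeR). Ser12 had 0 counts in all 6 libraries and was not tested. A count of 0 allows a share of up to 1.53e-05% of the reads in the deepest library and 1.76e-05% in the shallowest, taking 3 counts as the limit, which covers counting error only.

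Summed over the class, the Jonah genes changed far less than most of their members. The Jonah sum was 104161, 87753 and 74642 normalized counts in CR11538-overexpressing libraries, against 81544, 68356 and 59065 in control libraries, a mean of 88852 ± 14791 in CR11538-overexpressing flies and 69655 ± 11296 in control flies (SD). The ratio of the means was 1.28 and the libraries overlapped. The abundant 65A locus carried 50.7% of the Jonah sum in CR11538-overexpressing flies and 74.9% in control flies, while 99C carried 25.9% in CR11538-overexpressing flies and 11.5% in controls. The Jon25B locus carried 12.5% in CR11538-overexpressing flies and 4.13% in controls. Jon65Aiv alone made up 30.3 ± 2.34% of the Jonah counts in CR11538-overexpressing flies and 41.9 ± 1.08% in control flies (SD). Loci whose genes rose thus took a larger share of the class in CR11538-overexpressing flies.

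The trypsin sum was 95559, 76382 and 69422 normalized counts in CR11538-overexpressing libraries, against 78108, 68047 and 72225 in control libraries, a ratio of the means of 1.11 with overlapping libraries. alphaTry made up 55.8 ± 0.526% of it in CR11538-overexpressing flies and 64.8 ± 1.93% in control flies (SD). Jonah counts per trypsin count were 1.09, 1.15 and 1.08 in CR11538-overexpressing libraries, against 1.04, 1.005 and 0.818 in control libraries. This ratio is within a library and so does not depend on scaling, and its values did not overlap between genotypes. No test was made on these sums. All 31 genes together took 1.01, 0.897 and 0.81% of the counts of the CR11538-overexpressing libraries, against 0.868, 0.741 and 0.737% of the control libraries.

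**Figure D4:**
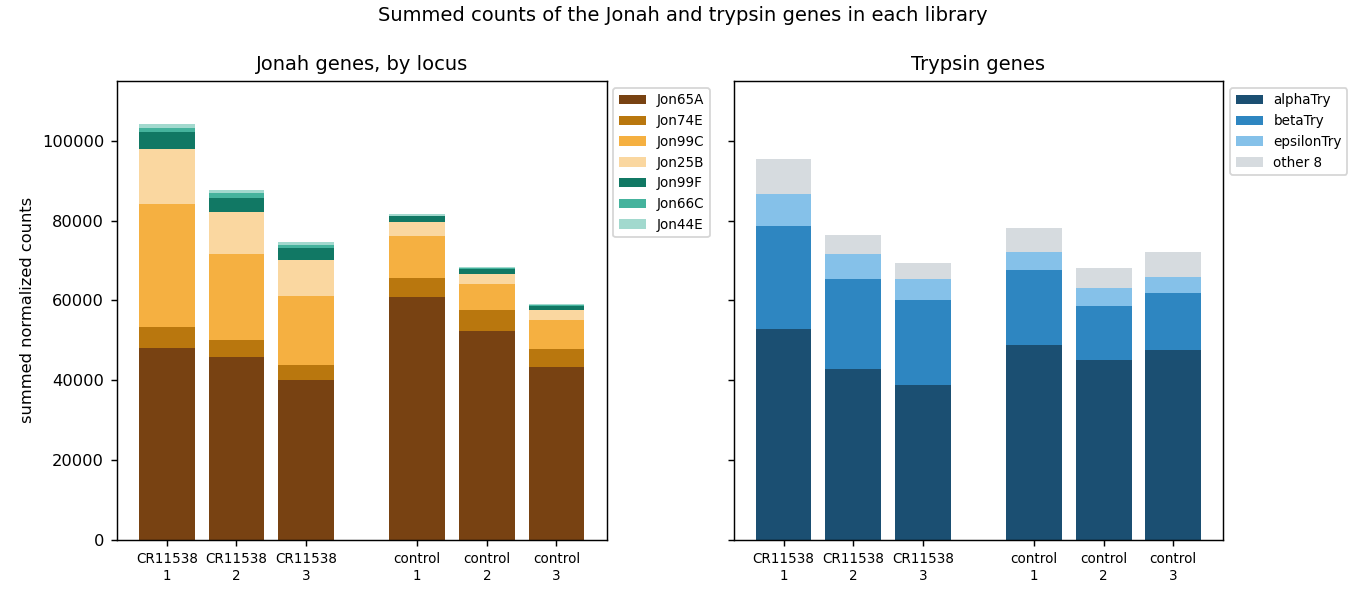
Summed TMM-normalized counts in each library as stacked bars, the 16 Jonah genes split by locus (left) and the 11 trypsin genes split into alphaTry, betaTry, epsilonTry and the other 8 (right), CR11538-overexpressing libraries to the left of control libraries. The 65A locus makes up 50.7% of the Jonah bars on average in CR11538-overexpressing flies and 74.9% in control flies, and the bar heights overlap between genotypes in both panels.

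Genes next to the Jonah loci were called about as often as genes in general. Within 10000 bp of a Jonah gene, 34 other genes were tested, of which 4 rose and 5 fell, with a median log2 fold change of 0.02, and 11.8% of them rose, against 15.0% of all genes. Within the same distance of the trypsins, 8 were tested, and none rose and 1 fell. Among those Jonah neighbours are other proteases of the same kind. CG7542, the serine protease gene next to Jon74E, had 2895, 2662 and 2458 normalized counts in CR11538-overexpressing libraries, against 1029, 1173 and 973 in control libraries, and it rose (log2 fold change 1.34 ± 0.09, SE, adjusted p = 2.65e-05, edgeR) where Jon74E did not pass. CG10477, a serine protease gene beside the 65A locus, had 1460.0, 909 and 935 in CR11538-overexpressing libraries, against 3307, 2871 and 2744 in control libraries, and it fell by 1.43 on the log2 scale (SE 0.17, adjusted p = 0.000369, edgeR). yip7, another serine protease gene of that stretch, gave -0.21 ± 0.11 (SE, adjusted p = 0.174, edgeR).

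The other lists of digestive enzymes held genes that rose and genes that fell. Beside 15.0% of all genes tested that rose and 14.2% that fell, 6 of 33 other gut serine proteases rose and 11 fell, with a median log2 fold change of -0.13. CG18180, one of them, had 12690.4, 13924 and 8879 normalized counts in CR11538-overexpressing libraries, against 2079, 1780.4 and 1209 in control libraries (log2 fold change 2.81 ± 0.22, SE, adjusted p = 5.15e-05, edgeR). That log2 fold change lies within the range of the Jonah genes that rose. CG5246, also of this list, had 131, 139 and 141 in CR11538-overexpressing libraries, against 274, 310.3 and 304 in control libraries, and fell by 1.11 on the log2 scale. Of 14 metallocarboxypeptidases, which trim residues from the end of peptides that trypsins and Jonah proteases release, 4 rose and 1 fell, beside the same 15.0% and 14.2% of all genes (median -0.02). Without CR11538-overexpressing replicate 1, 4 rose and 5 fell. CG12374 averaged 34355 ± 5142 in CR11538-overexpressing flies and 18282 ± 2731 in control flies (SD), and rose by 0.91 on the log2 scale. CG7025 (0.97) and CG4408 (1.32) also rose, while CG3097 fell by 0.89 on that scale.

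Of 20 carbohydrases, 5 rose and 6 fell, beside 15.0% and 14.2% of all genes tested (median log2 fold change -0.02). The lysosomal-type alpha-mannosidases LManIII and LManVI rose, LManVI averaging 3588 ± 826 in CR11538-overexpressing flies and 1133 ± 368 in control flies (SD). The maltase Mal-A7 averaged 5101 ± 406 in CR11538-overexpressing flies and 8289 ± 196 in control flies (SD) and fell by 0.70 on the log2 scale, and Mal-A4 fell by 0.72. Of 13 lipases and related lipid enzymes, 4 rose and 3 fell, beside the same shares of all genes (median 0.10). CG8093 had 1013, 864 and 755 in CR11538-overexpressing libraries, against 206, 252 and 166 in control libraries (2.07 ± 0.15, SE, adjusted p = 4.69e-05, edgeR), and Gba1a, a glucocerebrosidase, rose by 1.01. CG6295 fell by 1.13 and CG5162 fell by 1.46 on the same scale. The medians of these 4 lists lay between -0.13 and 0.10, against 1.50 for the Jonah genes.

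Of 14 factors and signals known to act in the midgut or on digestive enzyme genes of the fly, 1 rose and 8 fell, beside 15.0% and 14.2% of all genes tested, with a median log2 fold change of -0.26. sugarbabe (sug), the zinc finger factor induced by sugar, had 849, 862 and 705 normalized counts in CR11538-overexpressing libraries, against 1738, 1631 and 1426 in control libraries, and it fell by 0.99 on the log2 scale (SE 0.10, adjusted p = 0.000167, edgeR). In the activin branch, the ligand dawdle (daw) fell by 0.49, the receptor babo fell by 0.26 and the transducer Smox fell by 0.26, while the receptor punt (put) rose by 0.78. foxo, the insulin-responsive factor, averaged 1228 ± 71.2 in CR11538-overexpressing flies and 1734 ± 58.9 in control flies (SD) and fell by 0.50. The intestinal factor GATAe, which is also on the list of enterocyte markers, fell by 0.53, and the nuclear receptors Hr96 and Hnf4 fell by 0.36 and 0.25. The number that fell was 5 without control replicate 1. These factors act in several tissues, and the part of the midgut in these values was not measured.

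Markers of enterocytes, the cells that make these proteases, had a median log2 fold change near 0. Of 10 enterocyte markers, none rose and 3 fell (Myo61F, Ssk and GATAe), against 15.0% and 14.2% of all genes tested, while 5 of the 10 had a positive log2 fold change. Among these 5, mex1 gave 0.26 (adjusted p = 0.083, edgeR), with every CR11538-overexpressing library above every control library. In the other direction, Tsp2A gave -0.29 (adjusted p = 0.0663, edgeR), with every CR11538-overexpressing library below every control library. Without overlap, 1 of the 10 was higher and 4 were lower, beside 21.8% and 23.3% of all genes tested. The list's summed level was 11242 to 11812 normalized counts in CR11538-overexpressing libraries, against 12101 to 13623 in control libraries. Of 8 enteroendocrine markers none rose and 3 fell, and of 5 markers of the acid-secreting middle midgut 2 rose and none fell. All 6 muscle markers tested rose, with sums of 127866 to 217265 in CR11538-overexpressing libraries, against 63506 to 81725 in control libraries. Of 6 fat body markers tested, Lsd-1, Fbp1 and apolpp rose, takeout (to) fell and Lpin and bmm did not pass, with sums, in which apolpp gave most of the counts, of 38020 to 70235 in CR11538-overexpressing libraries, against 28339 to 37116 in control libraries. Markers of the Malpighian tubule (0 of 6 rose, 1 fell), the testis (3 of 7 rose) and the eye (3 of 8 rose) made smaller shifts. All 6 Malpighian markers had negative log2 fold changes, with sums of 4357 to 4696 in CR11538-overexpressing libraries, against 5246 to 5273 in control libraries. All 7 testis markers had positive ones, with sums of 45164 to 50077 in CR11538-overexpressing libraries, against 38963 to 42218 in control libraries. The eye sums overlapped between genotypes. The part of any of these in the Jonah result was not tested.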

How the data were processed

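Poly(A) RNA was sequenced with paired ends. The authors aligned reads to dm6 with HISAT2 2.0.5, counted them per gene with featureCounts 1.5.0-p3 and deposited the raw counts, unscaled and 1 column per library. For the annotation release, the strand setting and the handling of multiply aligned reads, the values were not given in the sources used here. Genotype and replicate came from the submitters' labels. The Ensembl 115 annotation of dm6 gave symbols, positions and exon lengths for 17252 of the 17558 identifiers and for all 31 genes of the rule.

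In edgeR 4.0.16 (limma 3.58.1, R 4.3.3), 13159 genes were kept by filterByExpr, libraries were scaled by TMM, and genotype was the only term of the quasi-likelihood test, with 4 residual degrees of freedom. Of the 31 genes 30 passed the filter. SE is the unshrunk log2 coefficient over the square root of F. Level per length is TMM-scaled CPM per kilobase of exon union. Every pair of replicates differed by more than sampling noise, so all 6 libraries were used. The chi-square per gene was 6.95 to 7.86 between control libraries. Between CR11538-overexpressing libraries it was 12.9 to 35.6, highest for replicates 1 and 3. The scripts were tested on simulated counts. Python 3.11.15, pandas 2.3.3 and matplotlib 3.10.9 made the tables and figures.

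The genes and lists were chosen with earlier results of these data known. Values are given in every library for genes of the rule that passed and for the 3 of each class with the highest level per length. Of each list of other gut genes up to 4 are named, those with the lowest adjusted p whose mean reached 50 normalized counts, and so is every regulator that passed. thetaTry, lambdaTry, etaTry, iotaTry, kappaTry, zetaTry, gammaTry, deltaTry, Jon65Aii, CG30025, CG30031, CG8586, yip7 and mex1 are given as well, the last 5 chosen after their values were seen, like the fat body and enterocyte markers named, as were the windows of 10000 bp and 100 kb. The 12 alternatives were DESeq2 1.42.0, edgeR with DESeq2's size factors, edgeR with library size alone, no filter, a minimum of 10 counts in each library, a block for the replicate number, and each library left out in turn. Protein and promoter sequences were not used here, so the planned descriptions of them were not made.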

Additional observations from a re-analysis of the deposited data

How the results depend on the processing

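Of the 12 alternatives, 12 or 13 Jonah genes rose in each, 2 trypsin genes rose in each, and 1 Ser gene rose and 1 fell in each. The median log2 fold change of the Jonah genes ran between 1.31 and 1.72. When libraries were left out in turn, 0 to 2 Jonah genes and 0 to 2 trypsin genes fell, and 1193 to 2024 of all genes rose and 1146 to 1889 fell (the lowest counts were without control replicate 2). The log2 ratio of the summed Jonah counts ran between 0.22 and 0.48 and that of the trypsin counts between 0.00 and 0.24.

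Whether libraries of the same number were paired is not stated. Same-numbered libraries correlated weakly, at 0.126, 0.0336 and 0.0654, in their deviations from the group means. The other pairs ran between -0.114 and 0.048. Each CR11538-overexpressing library correlated best with the control of its number, but control replicate 2 was closest to CR11538-overexpressing replicate 3. These values do not settle whether the libraries were paired. With the replicate number as a block, 2061 of all genes rose and 1924 fell, 1 trypsin gene (lambdaTry, adjusted p = 0.0345, edgeR) fell, Jon65Aii rose (adjusted p = 0.00126, edgeR), and zetaTry stood at -0.023. zetaTry also changed sign with library size alone (-0.028) and with no filter (-0.0011), and 5 metallocarboxypeptidases fell under the block, 5 without CR11538-overexpressing replicate 1, 3 with DESeq2 and 4 with library size alone. With at least 10 counts in every library, 3 carbohydrases rose, and Jon66Cii could not be tested.

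The signs of some trypsins that did not pass turned as single libraries were left out. Log2 fold changes ran between -0.24 and 0.19 for zetaTry, -0.43 and 0.85 for deltaTry, and -0.48 and 1.19 for gammaTry. They ran between -0.49 and 0.18 for thetaTry, -0.19 and 0.070 for kappaTry, and -0.20 and 0.018 for alphaTry. The sign of Ser6 turned likewise, between -0.024 and 0.30. Without control replicate 1, 5 regulators fell. With 3 libraries a genotype, the SE of the log2 fold change was 0.49 and 0.63 for deltaTry and gammaTry. At this spread a change of 2-fold, or somewhat more, could be missed in them. Without control replicate 3, gammaTry reached 1.19 and did not pass (adjusted p = 0.271, edgeR). The causes of these changes were not tested.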
